A study of Arabidopsis thaliana with 39 samples.

Results

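Shoot apices of Arabidopsis thaliana plants labelled ld were compared with shoot apices of the wild type Col0. The comparison took 3 ld and 3 Col0 libraries, 6 of the 39 libraries of the series, chosen by genotype and tissue. All plants were 7 days old and grown in 16 h of light per day, and each library came from 30 dissected apices, pooled before RNA extraction. The libraries labelled ld carry a mutation of LUMINIDEPENDENS (LD), and those labelled Col0 carry none. The same table holds 3 libraries labelled pol2a, from plants mutated in POL2A, the catalytic subunit of DNA polymerase epsilon, and 3 labelled ld pol2a, from plants with both mutations; they share no library with the ld and Col0 groups. The sources used here name neither the alleles nor a transgene. The design text calls the replicates biological, but no source says that they came from separate sowings, so the p-values rest on a spread between libraries that may be technical.

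LD encodes a homeodomain protein that acts in the nucleus as part of the autonomous pathway to flowering. The proteins of that pathway lower the expression of FLOWERING LOCUS C (FLC), a MADS-box repressor of flowering, and mutants that lack one of them flower late and respond to vernalization. FLC protein binds DNA of SUPPRESSOR OF OVEREXPRESSION OF CO 1 (SOC1), a MADS-box activator of flowering in the shoot apex, and keeps it low. MADS-box proteins recognise a CArG box, a short AT-rich element between a pair of C and a pair of G bases.

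The window upstream of SOC1 is shown because SOC1 had the clearest fall in ld apices and because it holds such an element. SOC1 (AT2G45660) lies on the minus strand at chr2:18807505-18811125 of TAIR10.1. The 120 bases below, from chr2:18811772-18811891 on the minus strand, are RefSeq's TAIR10.1 sequence, with the CArG box in capitals.
SOC1 upstream window: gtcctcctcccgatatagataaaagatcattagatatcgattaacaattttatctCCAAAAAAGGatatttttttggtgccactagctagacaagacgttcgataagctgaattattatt
The box begins at position -711 from the annotated start of the gene and is the 1 match between 1000 bases before and 50 bases after that start, searched on both strands. A match is a description of letters and not a bound site. The same search found at least 1 box at 2742 of 37883 annotated genes (7.24%), at 7.77% of the genes tested, at 4 of the 71 genes called higher in ld (5.63%) and at 10 of the 107 nuclear genes called lower (9.35%). No match was found in these windows of FLC, MAF5, AGL24 and MRD1.

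Reads in genes, in units of 1e6, numbered 11.95 to 16.02 in the 6 libraries and up to 21.1 in all 12 apex libraries. The unit of levels is TMM-scaled CPM (reads of a gene per 1e6 reads, corrected for library composition). A gene was called where the quasi-likelihood test of edgeR gave an adjusted p under 0.05. Of 33562 genes listed, 18705 passed the filter on low counts and were tested. Library ld 3 stood apart from ld 1 and ld 2. Its log2 ratio to the mean Col0 profile fell by 0.21 for each doubling of annotated gene length, while ld 1 and ld 2 rose by 0.17 and 0.12; the Col0 slopes were 0.004, 0.075 and -0.079. In levels over genes, ld 3 correlated best with Col0 3 (Pearson r across genes 0.984, against 0.953 with ld 1 and 0.966 with ld 2). Results are therefore given with and without ld 3. The shoot meristem list had 16 of 20 members past the filter, among them STM, KNAT1 and ANT, while WUS, CLV3, CUC1 and LAS did not pass it. All 12 members of the leaf primordium and polarity list passed. The summed level of the 14 root markers was 35.3 to 38.4 CPM in Col0 and 25.01 to 31.93 in ld, with 7 of them under the filter, and none of the 10 seed maturation genes passed it.

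LD itself was measured first. LD (AT4G02560, chr4:1123475-1128490, minus strand) was at 17.57, 21.40 and 14.72 CPM in the Col0 libraries and at 9.62, 11.2 and 4.23 in the ld libraries. Each ld library was below each Col0 library. The log2 change was -1.1 ± 0.30 (SE) and was not called (edgeR, adjusted p = 0.0912). Without ld 3 it was -0.79 and was called (edgeR, adjusted p = 0.0415), as it also was with a correction for gene length in each library (adjusted p = 0.0237). In the other apex libraries LD was at 11.2, 18.4 and 18.5 CPM in pol2a and at 4.93, 3.80 and 3.60 in ld pol2a, a called fall of 1.95 on the log2 scale (edgeR, adjusted p = 0.00254). With the alleles unnamed, the level of the transcript checks no label, and ld stands throughout for the libraries so labelled. FLD, which encodes a histone demethylase-like protein of the same pathway, was at 19.0, 22.0 and 18.8 CPM in Col0 and at 25.91, 21.58 and 17.62 in ld, and POL2A at 19.99, 23.74 and 13.66 and at 30.3, 22.4 and 12.1. For both the groups overlapped.

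In ld apices 71 genes were called higher (0.38% of those tested) and 110 lower (0.588%). The clearest changes were FLC, SOC1, the small uncharacterised protein gene MRD1, the pseudogene AT5G35935 and BHLH100, an iron-deficiency regulator. The change was at least 2-fold for 41 of the rises and 26 of the falls. At an unadjusted p under 0.05 there were 3577 genes, and the median log2 change over all genes tested was 0.02. In each of the 181 called genes, the 3 ld libraries did not overlap the 3 Col0 libraries; this held for 3649 of all genes tested (19.5%).

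Without ld 3, 1222 genes were called higher (6.53%) and 1276 lower (6.82%), and all 181 genes were among them. The count depended on single libraries in both directions. It was 10 without Col0 1, 18 without Col0 2, 324 without Col0 3, 19 without ld 1, 17 without ld 2 and 2498 without ld 3. Leaving out a library of the other genotypes, which enter through the shared estimate of the spread, gave 202, 44 and 102 genes for pol2a 1, 2 and 3, and 64, 31 and 48 for ld pol2a 1, 2 and 3. With the replicate number as a block in the fit, 524 genes were called, 191 higher and 333 lower, and all 181 were again among them. Correlations between the libraries did not establish that these numbers pair them. A fit of the 6 libraries alone called 5 genes, and 318 with the block.

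**Figure D1:**
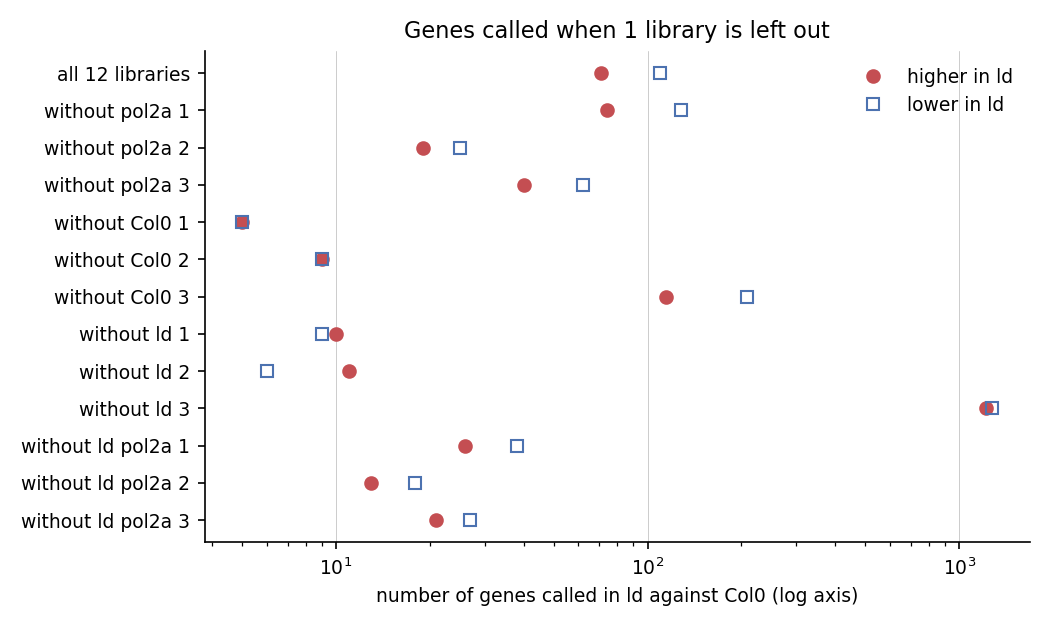
Numbers of genes called higher and lower in ld against Col0 apices (edgeR, adjusted p under 0.05, logarithmic axis) with all 12 apex libraries and with each library left out in turn. Filled points are rises and open squares falls. Their sum is 181 with all libraries, 2498 without ld 3 and 10 to 324 with each of the other libraries left out.

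Genes called in every one of these 12 repeats numbered 10. They were MRD1, FLC, BHLH100, AT2G14247 and ATWHY2, which rose, and SOC1, AT5G35935, AT1G20390, AT5G28500 and AT1G67590, which fell. AT1G20390 is annotated as a pseudogene, AT5G28500 as a rubisco accumulation factor-like protein, AT1G67590 as a remorin family protein and AT2G14247 as an uncharacterised protein. Each of the other 171 called genes lost the call in at least 1 repeat; over the repeats without a Col0 or ld library, their highest adjusted p came without Col0 1 for 163 of them and without ld 2 for 8.

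**Figure D2:**
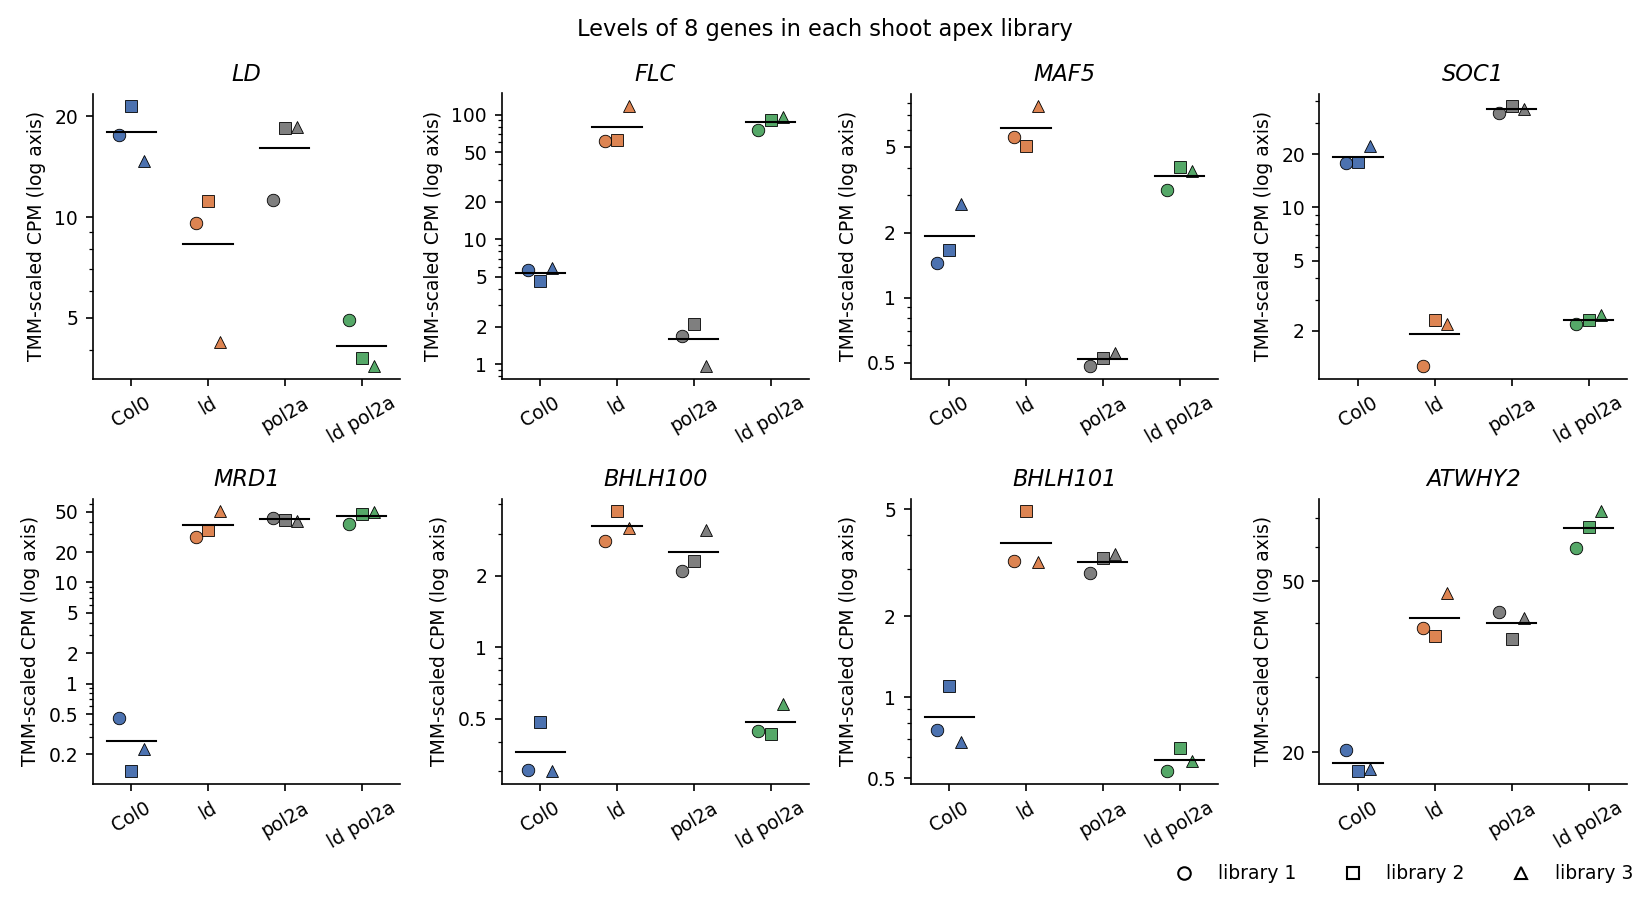
Levels of 8 genes in TMM-scaled CPM (logarithmic axis) in each of the 12 apex libraries, by genotype. Points are single libraries, with the marker giving the library number, and horizontal lines are means of 3 libraries. FLC, MAF5, MRD1, BHLH100, BHLH101 and ATWHY2 are higher and SOC1 is lower in each ld library than in each Col0 library, and LD in ld 3 is the lowest of the 6.

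FLC and its closest relatives, the MAF genes, are repressors of flowering. Of the 6 genes of this family, all of them tested, 2 rose in ld apices and none fell, and without ld 3 the counts were 3 and 0. Among all genes tested, 0.38% were called higher with all libraries and 6.53% without ld 3. The median log2 change of the family was 0.69, and 0.84 without ld 3, against 0.02 and -0.003 over all genes tested. FLC (AT5G10140, chr5:3173382-3179448, minus strand) was at 5.68, 4.62 and 5.89 CPM in Col0 and at 61.4, 62.5 and 116 in ld. Its levels in ld were more than 10 times those in Col0 in every library, and ld 3 was the highest. The log2 change was 3.89 ± 0.28 (edgeR, adjusted p = 2.56e-05), and 3.52 without ld 3 (adjusted p = 4.42e-07). MAF5, a repressor of the same family, was at 1.44, 1.66 and 2.72 CPM in Col0 and at 5.54, 5.06 and 7.68 in ld, a log2 change of 1.65 ± 0.25 (edgeR, adjusted p = 0.0188) that was 1.45 without ld 3 (adjusted p = 0.00855). MAF4 went from 1.29, 1.52 and 2.11 to 3.14, 2.60 and 2.68 CPM and was not called with or without ld 3 (edgeR, adjusted p = 0.138 and 0.0778). MAF2 and FLM had log2 changes of 0.29 and 0.03 and were not called.

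Among 20 genes that promote flowering, 11 passed the filter, and FT, TSF and AP1 were among the 9 that did not. Of the 11, SOC1 fell and none rose, and without ld 3 a further gene fell. SOC1, whose upstream window is printed above, was at 17.79, 18.01 and 22.19 CPM in Col0 and at 1.27, 2.31 and 2.19 in ld. The lowest Col0 library was more than 7 times the highest ld library. The log2 change was -3.33 ± 0.18 (edgeR, adjusted p = 2.33e-06), and -3.44 without ld 3 (adjusted p = 3.32e-06). AGL24, a MADS-box partner of SOC1, went from 6.29, 5.80 and 6.34 CPM to 3.47, 3.65 and 4.30; its groups did not overlap, and it was called without ld 3 (edgeR, adjusted p = 0.0143) and under the block (0.0464) but not with all libraries (0.0525). LFY, which starts flower formation, was below 1 CPM in all 6 libraries and was not called. The floral organ identity genes had 6 of 10 members past the filter and no call with or without ld 3.

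No member of the autonomous pathway list, LD included, was called with all libraries. Without ld 3, 4 of the 14 genes of that list were called higher (FCA, FPA, FY and FLK) and LD lower. Over all genes tested, that fit called 6.53% higher and 6.82% lower. FLK and FPA, which encode RNA-binding proteins of the pathway, went from 36.7, 37.0 and 38.6 to 51.8, 47.2 and 48.0 CPM and from 31.8, 30.4 and 23.9 to 45.1, 48.5 and 36.8. For both the groups did not overlap, and the calls without ld 3 (edgeR, adjusted p = 0.0231 and 0.0248) were not made with all libraries (0.0653 and 0.110). With a correction for gene length, the fit without ld 3 called none of FLK, FPA and FCA (edgeR, adjusted p = 0.071, 0.067 and 0.187). The value of FY in that fit is not given here. LD kept its call in that fit (0.00723). None of the 17 genes of the FRIGIDA complex and other FLC activators was called with all libraries, and 3 were called higher without ld 3. The same held for the 14 tested genes of the Polycomb and vernalization list, with 3 higher and 1 lower without ld 3. SVP, a repressor that acts with FLC at SOC1, was at 56.0, 57.1 and 75.6 CPM in Col0 and at 37.9, 39.4 and 55.1 in ld. It was lower in each ld library, and was called without ld 3 (edgeR, log2 change -0.70, adjusted p = 0.00945) but not with all libraries (-0.51, adjusted p = 0.113).

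The largest rise was that of MRD1 (AT1G53480, chr1), named for its response in a methionine-accumulating mutant. It was at 0.454, 0.138 and 0.227 CPM in Col0 and at 28.0, 33.2 and 50.3 in ld. The log2 change was 7.07 ± 0.34 (edgeR, adjusted p = 8.89e-07), and 6.78 without ld 3 (adjusted p = 2.08e-08). HEI10, a gene for a meiotic crossover factor that overlaps MRD1, rose from 2.50, 2.00 and 1.13 to 5.01, 5.51 and 5.92 CPM (edgeR, log2 change 1.54, adjusted p = 0.0268, and 0.0109 without ld 3). The annotated exons of MRD1 lie to 73.8% inside HEI10, and 40.9% of those of HEI10 inside MRD1. Since the sources used here do not say whether counting used strand, reads of the pair cannot be told apart.

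Genes of the iron deficiency response were noticed among the rises and then grouped in a list of 12, so the list is no independent evidence of a direction. Of the 12, all tested, 4 rose and none fell in ld apices, 6 rose without ld 3 and 5 with the replicate block. Of all genes tested, 0.38% were called higher with all libraries, 6.53% without ld 3, and 191 of 18705 with the block. BHLH100, bHLH38, bHLH39 and BHLH101 encode 4 related transcription factors that are switched on when iron is short. BHLH100 was at 0.303, 0.483 and 0.302 CPM in Col0 and at 2.80, 3.72 and 3.17 in ld (edgeR, log2 change 3.11 ± 0.30, adjusted p = 0.000759; 3.12 without ld 3, adjusted p = 0.00143). BHLH101 was at 0.757, 1.104 and 0.679 and at 3.21, 4.91 and 3.17 CPM (2.13 ± 0.27, adjusted p = 0.00588; 2.24 without ld 3), and bHLH39 at 0.227, 1.104 and 0.302 and at 2.87, 4.69 and 2.96 CPM (2.63 ± 0.47, adjusted p = 0.0327; 2.74 without ld 3). For all 3 genes each ld library was above each Col0 library. bHLH38 went from 0.454, 0.966 and 0.378 to 3.61, 4.02 and 1.62 CPM and was called without ld 3 (edgeR, adjusted p = 0.0079) and under the replicate block (0.0406) but not with all libraries (0.0505). FRO3, a mitochondrial ferric reductase gene, rose from 10.8, 8.14 and 14.8 to 27.84, 25.01 and 17.69 CPM (edgeR, log2 change 1.07, adjusted p = 0.0470). FRU, the factor that pairs with these 4 proteins in roots, and FRO2, the root ferric reductase gene, stayed at 0.606 to 0.893 and 0.735 to 1.73 CPM in the 6 libraries and were not called. The root marker IRT1, the main iron transporter of the root epidermis, was at 0.0757, 1.03 and 0.0755 CPM in Col0 and at 0.267, 0.149 and 0 in ld; the part of root tissue in the rises was not tested.

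Among the other rises, ATWHY2, which encodes a Whirly protein that binds single-stranded DNA in mitochondria, went from 20.22, 18.15 and 18.27 to 38.9, 37.3 and 46.9 CPM. The log2 change was 1.12 ± 0.12 (edgeR, adjusted p = 0.00168), and 1.01 without ld 3 (adjusted p = 0.00161). AT2G14247 went from 1.51, 2.55 and 1.21 to 9.15, 11.8 and 11.1 CPM (edgeR, log2 change 2.58, adjusted p = 0.00168; 2.55 without ld 3). Of the enzymes, CYP79F2, a cytochrome P450 of aliphatic glucosinolate synthesis, went from 4.47, 4.14 and 4.53 to 11.3, 10.9 and 6.34 CPM, and the P450 gene CYP81D11 from 1.51, 1.66 and 1.28 to 6.94, 7.29 and 4.02. For both the lowest of the ld libraries was ld 3, and both were called with and without it (edgeR, adjusted p = 0.0390 and 0.0417; 0.00166 and 0.0079 without ld 3). HSD3, a hydroxysteroid dehydrogenase gene, rose from 2.57, 2.55 and 2.49 to 5.14, 5.58 and 5.99 CPM (edgeR, adjusted p = 0.0117), and EMB975, whose product holds tetratricopeptide repeats, from 21.2, 18.1 and 25.1 to 37.9, 36.0 and 56.9 (adjusted p = 0.0327). ML3, annotated as a transcribed pseudogene, was at 23.9, 14.5 and 6.63 CPM in ld against 4.23 to 4.83 in Col0. CHX18, of the cation/H+ exchanger family, rose from 1.81 to 2.88 in Col0 to 4.34 to 5.22 CPM, with 87.4% of its exons inside another counted gene. AT3G53140, annotated as an O-methyltransferase, rose from 0.302 to 0.414 to 0.846 to 6.28 CPM, but its exons lie wholly inside those of a neighbour, so its reads are uncertain. Such overlap of more than 50% was found for 10 of the 181 called genes and for 2.42% of all genes tested.

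The strongest fall in size was that of AT5G35935, a pseudogene on chromosome 5. It was at 6.97, 8.35 and 7.32 CPM in Col0 and at 0.0668, 0 and 0.0705 in ld, from 310 reads in the 3 Col0 libraries and 2 in the 3 ld libraries. The ratio of Col0 to ld reads, scaled by the libraries' sizes and TMM factors, was 161 (95% exact interval 44.3 to 1340, counting error only). It was called with all libraries (edgeR, adjusted p = 1.78e-05) and without ld 3 (8.32e-05). AT1G20390 fell from 14.5, 14.6 and 17.5 to 6.14, 4.69 and 2.68 CPM (edgeR, log2 change -1.78, adjusted p = 0.00672; -1.51 without ld 3). Sadhu elements, short non-coding retrotransposons of Arabidopsis, were also grouped after the values were seen. Of 16, 10 passed the filter, 3 of them fell and none rose, and 5 fell without ld 3. The share of all genes tested that was called lower was 0.588%, and 6.82% without ld 3. SADHU3-2 went from 1.89, 1.17 and 2.49 to 0.267, 0.149 and 0 CPM (edgeR, adjusted p = 0.0146; 0.00486 without ld 3). SADHU5-1 went from 4.01, 2.97 and 3.40 to 0.401, 0.447 and 1.198 (edgeR, adjusted p = 0.0450; 0.00834 without ld 3). Sadhu4-2 fell from 26.9, 26.6 and 26.2 to 13.2, 13.0 and 19.2 CPM, with 94.8% of its exons inside another counted gene. Among the listed methylation genes and silenced loci, 11 of 12 tested, QQS alone was called with all libraries. QQS, a gene of no known relatives whose level varies with DNA methylation, went from 0.909, 1.17 and 0.981 to 0.401, 0.372 and 0.141 CPM (edgeR, adjusted p = 0.0491; 0.0301 without ld 3).

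Other falls were in protein genes of varied function. TLL1, a triacylglycerol lipase-like gene, fell from 118, 72.9 and 51.0 to 29.31, 20.24 and 15.86 CPM. In both genotypes library 1 was the highest and library 3 the lowest, and the adjusted p went from 0.0488 to 4e-05 with the replicate block (edgeR; 0.0483 without ld 3). AT1G54040, the epithiospecifier protein gene, which directs glucosinolate breakdown to nitriles, fell from 40.3, 26.36 and 23.55 to 12.09, 10.9 and 14.2 CPM (edgeR, log2 change -1.28, adjusted p = 0.0397; -1.39 without ld 3). AT5G38930, annotated as a cupin, fell from 9.92, 7.45 and 10.3 to 1.54, 1.34 and 3.88 CPM (edgeR, log2 change -2.03, adjusted p = 0.0227; -2.67 without ld 3). FDM2, a factor of RNA-directed DNA methylation, fell from 11.9, 11.4 and 13.0 to 4.41, 4.76 and 5.92 CPM (edgeR, adjusted p = 0.0146), and the histone deacetylase gene HDA18 from 2.80, 2.28 and 1.66 to 1.202, 0.819 and 0.987 (0.0370). LTP6, a lipid transfer protein gene, fell from 157, 137 and 93.8 to 63.6, 55.4 and 64.7 CPM (edgeR, adjusted p = 0.0181). MIR398c, the precursor of a microRNA that targets copper/zinc superoxide dismutases, fell from 48.0, 45.8 and 36.8 to 19.9, 21.3 and 21.6 CPM (edgeR, adjusted p = 0.0378). CT-BMY, a chloroplast beta-amylase gene, and LSF1, both of starch breakdown, fell by 0.86 each on the log2 scale (edgeR, adjusted p = 0.0312 and 0.0227). Each of these genes was also called without ld 3, in the same direction.

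**Figure D3:**
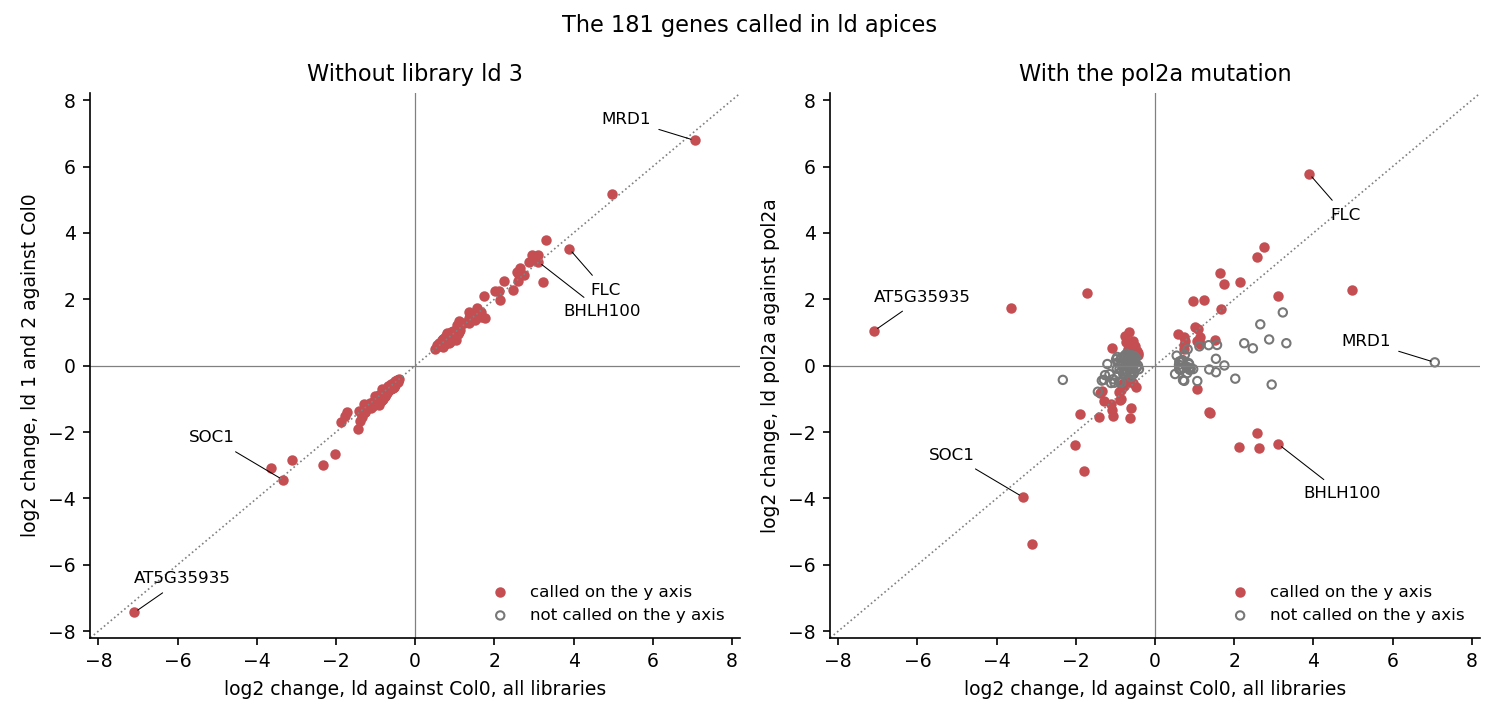
Log2 change in ld against Col0 apices with all libraries (x axis) for the 181 called genes, against the change without ld 3 (left) and the change in ld pol2a against pol2a apices (right). Filled points were called on the y axis (edgeR, adjusted p under 0.05) and the dotted line marks equal change. All 181 keep their direction and call without ld 3, whereas on the right BHLH100, AT5G35935 and others lie across the horizontal axis.

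Photosynthesis genes moved with library ld 3. The 20 photosynthesis genes were all tested; none was called with all libraries, 13 were called lower without ld 3 and none higher. The median log2 change went from -0.18 to -0.47. Their summed level was 156000, 136700 and 192900 CPM in Col0 and 106800, 116500 and 204700 in ld. Libraries ld 1 and ld 2 were below all of Col0, and ld 3 was above all of it. RCA, rubisco activase, was lower in each ld library, at 6743, 5718 and 6506 CPM in Col0 and at 4864, 4605 and 4848 in ld (edgeR, adjusted p = 0.134, and 0.0430 without ld 3). The small-subunit gene RBCS1B was at 682, 508 and 663 in Col0 and at 369, 318 and 605 CPM in ld (0.247, and 0.0165 without ld 3). Over all genes tested, 0.588% were called lower with all libraries and 6.82% without ld 3. Of the genes encoded in the chloroplast, 90 of 133 passed the filter, and 3 fell with all libraries against 46 without ld 3. Their summed level was 3885, 2962 and 4758 CPM in Col0 and 1780, 2717 and 8469 in ld. As a share of nuclear reads, chloroplast reads were 0.38%, 0.310% and 0.432% in Col0 and 0.207%, 0.307% and 0.757% in ld, means that differed by 0.0494 percentage points (exact two-sided permutation test, p = 1.0; the smallest p for 3 against 3 is 0.1). Without ld 3 the direction turned: the mean was 0.257% in ld against 0.374% in Col0, a difference of -0.117 percentage points, with both ld libraries below all 3 of Col0 (exact two-sided permutation test, p = 0.2, the smallest p that 2 against 3 allows). In bulk apices a lower share of green tissue and less of these transcripts per cell cannot be told apart. The libraries were made from polyadenylated RNA, and the part of that selection in the chloroplast counts was not tested.

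The 12 proteins associated with the plastid RNA polymerase, a list also made after the values were seen, had 1 member called lower and none higher. That member was TRX z, a plastid thioredoxin gene, which went from 94.8, 88.9 and 88.0 to 55.4, 59.9 and 72.7 CPM (edgeR, adjusted p = 0.0476; 0.00551 without ld 3). Without ld 3 the list had 2 members called lower and none higher. For all genes tested the shares called lower were 0.588% with all libraries and 6.82% without ld 3. The list's median log2 change was -0.35, and -0.29 without ld 3. In either fit 11 of the 12 members had a change below 0, against 47.1% and 50.3% of all genes tested. Since the list was made from these same values, that share is no independent evidence of a direction. In ld pol2a against pol2a apices the list had 3 members called higher and none lower, with a median of 0.35. There 8.43% of all genes tested were called higher. FLN2, a fructokinase-like gene of the plastid and not a member of that list, fell from 173, 166 and 133 to 101, 93.8 and 88.8 CPM (edgeR, adjusted p = 0.0181), and CPN60A, a plastid chaperonin gene, from 1252, 1174 and 986 to 771, 709.5 and 768 (0.0413); both were chosen after their values were seen.

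With all libraries, lists of growth, cell cycle and stress genes are read against a background of 0.38% of genes called higher and 0.588% lower. At that share lists of this size would hold few or no calls. None of the 16 tested meristem genes, the 12 leaf polarity genes, the 21 genes of DNA replication and S phase, the 14 of mitosis or the 14 of the DNA damage response was called with all libraries. STM, the homeobox gene that maintains the meristem, was at 3.86, 5.31 and 5.51 CPM in Col0 and at 5.41, 5.73 and 7.26 in ld (edgeR, log2 change 0.32, adjusted p = 0.386). Without ld 3, 6.53% of all genes tested were called higher and 6.82% lower, so calls in that fit are read against these shares. They were 1 higher for meristem, 4 higher and 1 lower for leaf polarity, 1 lower for S phase, 2 higher and 1 lower for mitosis and none for DNA damage. The histone H3 gene HTR13 was the S phase gene, at 58.1, 43.5 and 37.6 CPM in Col0 and at 32.6, 24.5 and 29.4 in ld (edgeR, adjusted p = 0.0896, and 0.0487 without ld 3). The S phase list had a median log2 change of -0.34, and -0.19 without ld 3. Of its 21 members 18 had a change below 0, and 16 without ld 3, against 47.1% and 50.3% of all genes tested. PHV, a leaf polarity gene, shows the split among ld libraries, with 9.01, 12.7 and 7.25 CPM in Col0 and 29.2, 23.5 and 7.54 in ld. It was called higher without ld 3 (edgeR, adjusted p = 0.00853) and not with it (0.176). The clock list had 2 of 13 genes called higher without ld 3 and none with it. Abscisic acid and water stress genes had a median of -0.72 and no call with all libraries or without ld 3, while under the replicate block ABI2, a phosphatase gene of that list, was called lower (edgeR, adjusted p = 0.0434, against 0.173); RD29A, a stress-induced gene, was at 103, 148 and 51.3 CPM in Col0 and at 42.7, 55.7 and 44.5 in ld. The cold-induced CBF3 went from 1.44, 1.52 and 1.13 to 0.467, 0.149 and 0.352 CPM and was called without ld 3 only (edgeR, adjusted p = 0.0472, against 0.0864). TCH2, a touch-induced calmodulin-like gene of the touch, wound and cold list, was called lower under the replicate block only (edgeR, adjusted p = 0.0209, against 0.0909). Of the 14 tested members of that list, 7 had a change above 0 with all libraries and 7 without ld 3. In the fit without ld 3, 1 member was called higher. Salicylic acid immunity, heat shock, vascular, and stomatal and trichome lists had no call with all libraries or without ld 3, and 1 of the 7 root markers tested, SHR, was called lower without ld 3 (adjusted p = 0.0103). Of the 12 housekeeping genes none was called with all libraries, and without ld 3 there were 2 higher and 1 lower.

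**Figure D4:**
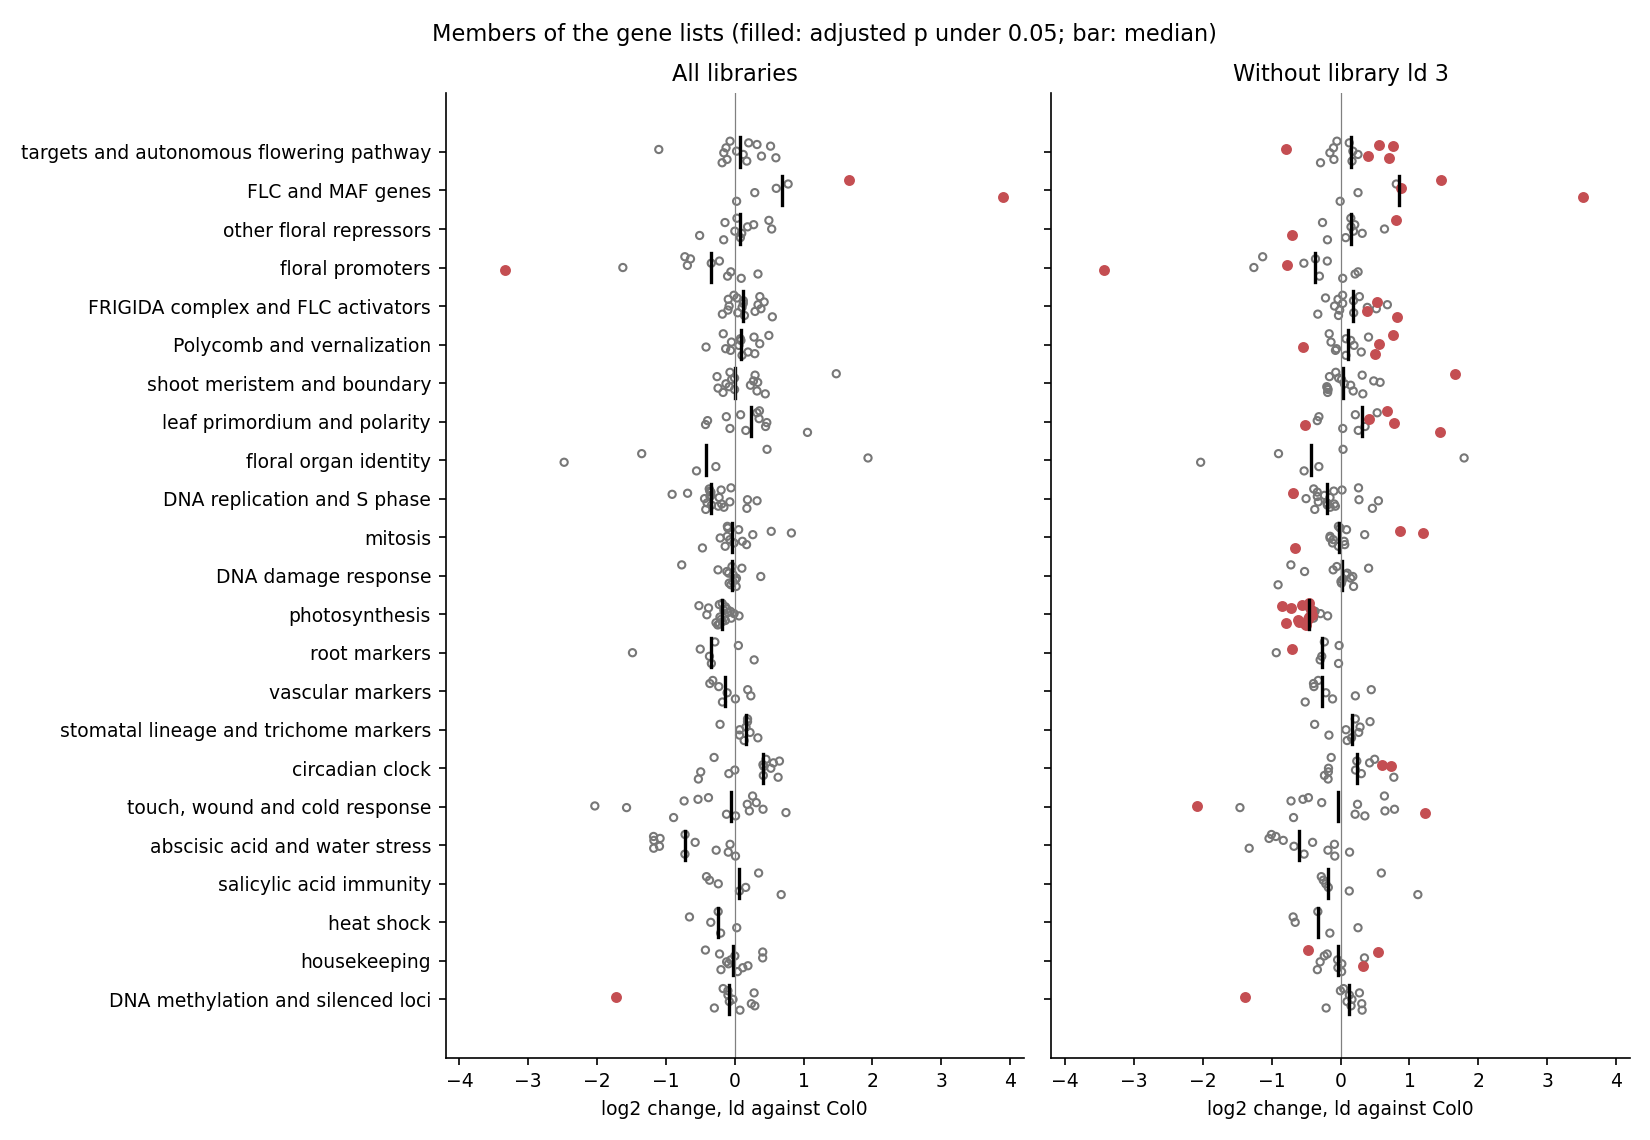
Log2 change in ld against Col0 apices for the tested members of gene lists, with all libraries and without ld 3. Points are genes, filled where called, bars are medians and the lists are named on the axis; photosynthesis genes lie lower without ld 3, with a median of -0.47 against -0.18.

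Gene length separated the results with and without ld 3. Genes were split by exon length into 4 groups of nearly equal size. In the longest group, 2427 to 16614 bases, 598 genes were called higher and 207 lower without ld 3, and in the shortest group, up to 1307 bases, 125 higher and 444 lower. With all libraries the same groups had 14 higher and 34 lower, and 32 higher and 22 lower. The median log2 change of the longest group was 0.063 with all libraries and 0.154 without ld 3, and of the shortest 0.006 and -0.129. With a length trend removed from each library, 506 genes were called with all libraries, 173 of the 181 among them, and 2736 without ld 3. The part of length in single results beyond these fits was not tested.

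**Figure D5:**
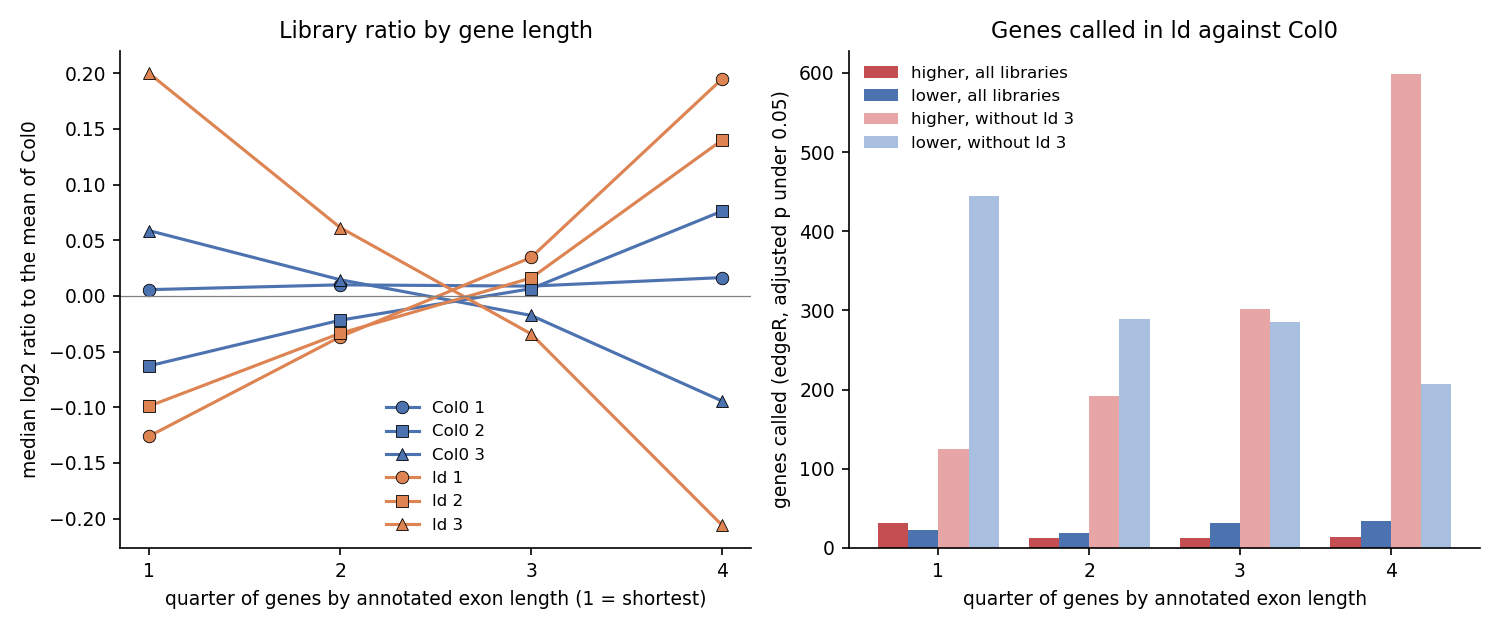
Left, median log2 ratio of each Col0 and ld library to the mean Col0 profile in 4 groups of gene length, from the shortest to the longest; right, numbers of genes called in ld against Col0 in 4 groups of gene length, with all libraries and without ld 3. In the longest group the median ratio of ld 3 is -0.21, against 0.195 for ld 1 and 0.14 for ld 2, and without ld 3 the longest group has 598 rises and 207 falls.

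The effect of ld was measured a second time in plants that carried pol2a. There 1576 genes were called higher (8.43%) and 1102 lower (5.89%). The slopes on gene length were -0.215, -0.037 and -0.007 in pol2a 1, 2 and 3. In ld pol2a 1, 2 and 3 they were -0.089, -0.226 and -0.244, the last 2 steeper than that of ld 3. With a length trend removed from each library, 1751 genes were called higher and 1493 lower. Of the 71 rises in ld apices, 23 were also called higher in ld pol2a against pol2a, and 7 were called lower. Of the 110 falls, 23 were also called lower, and 21 were called higher. The difference between the effects was called for 959 genes in the higher direction (5.13%) and 451 in the lower (2.41%), among them 30 of the 71 rises and 65 of the 110 falls, or 39 and 76 without ld 3. These counts share the ld and Col0 libraries with the choice of the genes. With the length trend removed, the difference between the effects was called for 1241 genes in the higher direction and 708 in the lower. SOC1 fell in both, from 34.4, 37.3 and 35.9 CPM in pol2a to 2.17, 2.29 and 2.44 in ld pol2a, by 3.96 on the log2 scale (edgeR, adjusted p = 1.22e-07), and the difference between the effects was not called (adjusted p = 0.155). FLC went from 1.69, 2.09 and 0.972 to 75.5, 90.0 and 95.7 CPM, a log2 change of 5.78 (edgeR, adjusted p = 8.68e-07) that differed from that without pol2a (adjusted p = 0.0189). MAF5 and ATWHY2 also rose with pol2a, by 2.79 and 0.73, and LSF1 and TLL1 fell by 0.73 and 1.47. The 3 regulators BHLH100, BHLH101 and bHLH39 moved the other way, and BHLH100 went from 2.096, 2.313 and 3.124 to 0.444, 0.430 and 0.578 CPM (edgeR, log2 change -2.37, adjusted p = 0.000475). Of the 12 iron genes 7 fell and none rose there. MRD1 was high in both groups with pol2a, at 40.7 to 43.8 and 38.2 to 49.6 CPM, and was not called (edgeR, adjusted p = 0.781). AT5G35935 was at 1.61, 2.98 and 2.64 CPM in pol2a and at 6.53, 3.73 and 4.69 in ld pol2a, a called rise (edgeR, adjusted p = 0.0229), where it had been near 0 in ld alone.

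Whole seedlings of ld and Col0 were sequenced in 3 further sets, with 18 libraries that are not among the apex libraries. Their changes are given relative to the median shift of all genes in each set, from limma on log2(signal + 1), a scale that understates the change of low genes. Of the independent directions in which libraries of a group can differ, the smallest had 7.85% of the spread of the next in set 1 and 15.2% in set 2, against 43.3% in set 3; with so little variation in 1 direction, p-values in sets 1 and 2 may be too small. Genes called higher and lower were 25.6% and 27.5% of those tested in set 1, 18.7% and 16.1% in set 2, and 19.3% and 19.3% in set 3. Of the 71 apex rises, set 1 tested 64 and called 50 higher and 2 lower, set 2 tested 65 and called 25 and 13, and set 3 tested 70 and called 44 and 10. Of the 110 apex falls, set 1 tested 98 and called 65 lower and 3 higher, set 2 tested 100 and called 25 and 33, and set 3 tested 104 and called 25 and 27. In all 3 sets, 18 of the rises and 12 of the falls were called in the same direction. Of these, 11 rises and 4 falls were also called that way in ld pol2a against pol2a apices. The rises were FLC, ATWHY2, EMB975, CHX18, HSD3, HLL, AT1G05780, AT1G72860, AT4G00250, AT4G03140 and AT4G15953, and the falls SOC1, LSF1, TLL1 and AT2G39850. FLC had relative log2 changes of 3.14, 3.42 and 3.14 in sets 1, 2 and 3, SOC1 of -2.31, -2.08 and -2.73, and MRD1 of 7.29, 7.54 and 7.16. BHLH100 had 0.81, -2.40 and 0.90, so set 2 differed in sign from the apices, and the listed LD transcript itself had 1.26, 0.23 and -0.26.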

How the data were processed

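The authors deposited raw counts per gene for the apices. The submitters' processing notes name the TAIR10 build and, in no stated order, featureCounts, HISAT2, Trimmomatic 0.38, DESeq2, SAMtools 1.9 and deepTools. Polyadenylated RNA went into libraries, per the labels' protocols. Seedling values were deposited as signal, which is reads per gene over a single factor for each library, with a spike-in named in the labels; reads recovered from them were whole for 100% of values within 0.1 reads and totalled 10.4 to 37.8 in units of 1e6. Symbols and positions came from TAIR10.1, which matched 32820 of 33562 loci; positions were not converted.

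Counts were tested with edgeR 4.0.16 (R 4.3.3; quasi-likelihood, robust, TMM, filterByExpr) over all 12 apex libraries, with Benjamini-Hochberg adjustment over all genes tested and a threshold of 0.05. Standard errors are those of the fitted log2 change. The difference between the effects of ld with and without pol2a was a contrast of the same fit. Seedling sets were tested apart with limma 3.58.1 on log2(signal + 1) where the gene's mean reached 10, and relative to the shift on a median-of-ratios scale. DESeq2 1.42.0, limma-voom, other filters and left-out libraries were alternatives. Scripts were tested on simulated data with known changes.

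Library numbers were checked for pairing by the correlation, over genes, of deviations from the group mean. Same-numbered Col0 and ld libraries gave 0.19, 0.49 and 0.54, all over 0.1. However, ld 1 gave 0.414 with Col0 2, more than with Col0 1. The rule of the design asked for values over 0.1 in every same-numbered pair of the 4 groups. That rule was not met, with -0.257 for Col0 2 and ld pol2a 2. The numbers are thus not shown to pair the libraries, and fits with the replicate block are alternatives only.

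Members, lists and tests were chosen with earlier results of these data known. The named genes were LD, FLD, POL2A, FLC and SOC1, up to 15 of the largest rises and falls that had a symbol, averaged at least 1 CPM and showed no overlap of the groups, the 10 smallest p without ld 3, and up to 4 genes of each list with the smallest p. Genes named after their values were seen are the added lists' members, the genes called in every repeat, CPN60A, FLN2, AT1G47395, AT1G47400 and AT2G30766. Of the 25 lists, 327 genes in all, all were written with the design, and 3 more lists were added after the values were seen.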

Additional observations from a re-analysis of the deposited data

Results flagged for a closer look

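The change in ld against Col0 apices differed from the change in ld pol2a against pol2a apices, by a test of the difference itself (edgeR, adjusted p under 0.05, 12 libraries), for 1410 of 18705 genes, 95 of them among the 181 called in ld apices. Given first are 33 of them, from the named genes and from those singled out after their values were seen. Values are the second log2 change minus the first, and their causes were not tested.

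Among those called in ld apices, negative differences were -6.97 for MRD1, -5.48 for BHLH100, -5.13 for bHLH39, -4.63 for AT2G14247, -4.58 for BHLH101, -2.82 for AT1G47395, -2.76 for AT1G47400, -2.42 for CYP81D11, -1.74 for HEI10, -1.53 for FRO3 and -1.40 for AT1G20390. Positive differences were 8.14 for AT5G35935, a fitted value that rests on 2 reads in ld, 5.38 for SADHU3-2, which was also near 0 in ld, 3.90 for QQS, 1.89 for FLC, 1.6 for LTP6 and 1.44 for FLN2. Those below 1 were 0.99 for CYP77B1, 0.98 for FDM2, 0.975 for CPN60A, 0.93 for TRX z, 0.89 for HDA18, 0.81 for Sadhu4-2, 0.80 for AT5G28500 and 0.54 for AT1G67590.

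Genes not called in ld apices had a difference too. It was -4.28 for bHLH38, whose adjusted p in ld apices was 0.0505, and 2.80 for GL2, a trichome regulator. GL2 was at 1.45 to 3.26 CPM in pol2a, 18.6 to 21.5 in ld pol2a and 17.1 to 33.8 in Col0 and ld. The difference was 1.26 for NAC103, 1.01 for EF1A, 0.91 for PCNA1, 0.80 for VRN5, 0.45 for MSI1 and -1.07 for PRR7. Further genes added after the values were seen had a called difference too and were not called in ld apices. It was -2.42 for AT2G30766, -1.59 for PYE, -1.48 for BTS, 1.16 for FSD3, 1.09 for FLN1 and 0.80 for PDE312.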

How the results depend on the processing

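The number of genes called in ld against Col0 apices, 181 with all 12 libraries, ran from 10 to 2498 when single libraries were left out. It was 524 with the replicate block, 1277 with the block and a gene length offset, 506 with the length offset, 2736 with the offset and without ld 3, 1924 without both libraries numbered 3, 5 in the 6 libraries alone, 318 there with the block, 1907 there without ld 3, 114 with no filter on low counts, 844 with DESeq2 and 5907 with limma-voom quality weights, which gave ld 3 a weight of 0.173. The settings that drop ld 3 and another choice together, the 6-library block and the seedling reads were chosen after seeing the data. List members called numbered 6, and 3 to 53 with single libraries left out, 21 with the block and length offset, 10 with the offset, 56 with the offset and without ld 3, 35 without both libraries numbered 3, 3 in the 6 libraries, 12 there with the block, 36 there without ld 3, 17 with DESeq2 and 93 with limma-voom. In ld pol2a against pol2a 2678 genes ran from 1017 to 3915, and the difference between the effects, 1410 genes, from 546 to 3689. Seedling counts of 18605, 15832 and 19913 on the deposited scale were 10119, 6757 and 8101 on the median-of-ratios scale and 9787, 6844 and 7798 with edgeR on recovered reads, and 18467 to 18570, 15389 to 15671 and 19535 to 19869 with libraries left out. Over 124 named genes and 25 settings, 2587 of 3054 values kept their direction and side of the threshold, 14 changed sign without a call in either fit, 249 lost a call, 204 gained one and no called value changed sign; the causes were not tested. With single libraries left out, a choice made after seeing the data, the difference ld minus Col0 in chloroplast reads, 0.0494 percentage points, ran from -0.117 (without ld 3) to 0.158, that in mitochondrial reads, -0.0381, from -0.0576 to -0.0233, and that in reads of the 10 most abundant genes, -0.847, from -2.87 to 0.38. At these depths 18705 of 33562 listed genes had enough reads to be tested.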
